A study of Danio rerio with 12 samples.

Results

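Heat shock proteins and their DnaJ co-chaperones were followed in the brains of male zebrafish that had watched other fish, or had been kept without sight of any, for 30 min. The set was read from the gene symbols of the array platform: every symbol that begins with dnaj, every hsp symbol that goes on with a digit or with a, b, d, e or h, and hsc70, hsf1 and hsf2, without the proteoglycan gene hspg2. The rule found 82 genes among the 18338 genes measured, each read from its probe set of highest mean. They were 48 DnaJ genes (5 of type A, 13 of type B and 30 of type C), 10 genes of the HSP70 family, 4 of the HSP110 family, 4 of the HSP90 family, 10 small heat shock proteins, both subunits of the mitochondrial chaperonin, 2 heat shock factors and 2 binding proteins, hspbp1 and hspbap1.

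Chaperones bind unfolded proteins and keep them from aggregating. HSP70 proteins do so in cycles of ATP hydrolysis, DnaJ proteins (the Hsp40 family) deliver the client and start the hydrolysis, and HSP110 proteins exchange the nucleotide and end the cycle. HSP90 proteins finish the folding of kinases and steroid hormone receptors, small heat shock proteins hold clients without ATP, and heat shock factor 1 turns on the inducible members after proteotoxic stress. In neurons, Hsc70 with the DnaJ proteins auxilin and cysteine string protein removes clathrin coats and keeps synaptic vesicle proteins folded.

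Whole brains of 12 adult AB wild-type males, 11 months old, were each put on an array of their own (Affymetrix Zebrafish Gene 1.1 ST), and every group held 3 fish. Bystanders to interacting conspecifics (BIC) paid attention to a fighting pair, bystanders attentive to non-interacting conspecifics (BANIC) paid attention to a pair that did not interact, bystanders inattentive to non-interacting conspecifics (BINIC) saw such a pair and paid it little attention, and isolated fish (ISOL) saw no fish. All fish of the 4 groups had spent the night before alone in the test tank, and contact between bystanders and the watched pair ran in 1 direction and by sight alone, across a one-way mirror. The fish were picked for their behavioral profiles out of a larger cohort, so attention was observed and not assigned, and the RNA is that of all brain cells together. In such RNA, fewer cells of a type and less RNA per cell cannot be told apart.

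The values are log2 values normalized by RMA, and a difference of 1 is a 2-fold change. The brain label was borne out by the 14 neuronal marker genes, whose mean lay between 8.84 and 8.96 on all 12 arrays. Markers of other tissues varied between fish. The mean of 18 skeletal muscle markers was 5.25 in the third BANIC fish and 4.18 to 4.53 in the other 11, and that of 7 red blood cell markers ran from 5.75 to 7.10. The mean of 21 photoreceptor markers was 3.71 to 3.83 in BIC, 3.76 to 4.53 in BANIC, 3.74 to 4.62 in BINIC and 3.78 to 4.58 in ISOL fish. At an unadjusted P under 0.05, 7 of the 21 were lower in BIC, 2 in BANIC and 1 in BINIC against ISOL, and 0 were higher. Of all genes 3.13% were lower in BIC, 3.29% in BANIC and 4.07% in BINIC. The mean of 12 endothelial and pericyte markers was 6.48 to 6.60 in BIC, 6.49 to 6.57 in BANIC, 6.56 to 6.61 in BINIC and 6.61 to 6.67 in ISOL fish, and at the same P 3 of the 12 were lower in BIC, 4 in BANIC and 3 in BINIC against ISOL, and 0 were higher.

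Across the 12 arrays the SD of 35 of the 82 (42.7%) exceeded 0.127, the median SD of all genes, and only those 35 entered the main test. The lowest median SD of any class or compartment was that of the synaptic vesicle and clathrin cycle. Hsc70 itself (hspa8), the cysteine string protein genes dnajc5aa and dnajc5ab and the auxilin gene dnajc6 had a median SD of 0.0505, and 0 of the 4 passed the filter. The small heat shock proteins had the highest median SD, 0.20, and 8 of 10 passed the filter. The 4 vesicle genes were placed after values were seen, and their means were 8.41 to 10.48, against a median of 5.75 for all genes. Left out of them were the cysteine string protein relatives dnajc5b, dnajc5ga and dnajc5gb, with SDs of 0.156, 0.104 and 0.141.

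A gene was called at an FDR under 0.05 in limma together with an absolute log2 difference of at least 1. None of the 82 genes was called against ISOL in BIC, where 7 of 9169 genes tested were called (0.0763%), in BANIC, where 10 were (0.109%), or in BINIC, where 2 were (0.0218%). Likewise 0 were called between attentive fish (BIC and BANIC) and the other fish (BINIC and ISOL), where 6 genes were called (0.0654%), between BIC and BANIC (0.0218% of genes) and between BANIC and BINIC (0.0109%). By the weaker rule of an unadjusted P under 0.05, with all 18338 genes fitted, 2 chaperone genes were higher and 0 lower in BIC, 4 were higher and 1 lower in BANIC, and 13 were higher and 2 lower in BINIC, each against ISOL. The shares of all genes were 2.5% higher and 3.13% lower in BIC, 2.61% and 3.29% in BANIC, and 5.24% and 4.07% in BINIC. In the main fit of BINIC against ISOL, 5 of the 35 members tested were higher (dnajc18, dnajc3a, hsf2, hspb6 and hspd1) and 1 was lower (hsc70). Of all genes in that fit 5.16% were higher and 3.6% lower. dnajb5, dnajb9b, hsp90aa1.1, hspb7 and dnajb1a passed the SD filter, but in BINIC they met the weaker rule only in the fit of all genes. The SEs printed for them are those of the main fit. The 3 comparisons with ISOL share its arrays, so their counts are not independent.

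The gene that carries the name dnajb5 on the platform is not the one that the study's tables list under a DNAJB5 name. The platform's dnajb5 lies on chromosome 5 of the assembly GRCz12tu. The study's gene is a DnaJ B gene that the platform and RefSeq call zgc:122979, on chromosome 21, and the symbol rule does not reach it. It is described here beside the 82 because the comparison with its relatives turns on it. It was singled out on these same arrays, so its values are given as a description.

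zgc:122979 read 9.52, 9.66 and 9.49 in BIC, 9.03, 8.79 and 9.67 in BANIC, 8.36, 8.49 and 7.91 in BINIC and 8.10, 7.13 and 8.10 in ISOL fish. All 3 BIC fish lay above every BINIC and ISOL fish, all 3 BANIC fish did so too, and the second ISOL fish was the lowest of the 12. The highest of the 12, at 9.67, was the third BANIC fish, which also had the highest skeletal muscle markers. Leaving out 1 fish at a time gave BANIC differences from ISOL of 1.07 to 1.58. The means were 9.56 ± 0.09 in BIC, 9.16 ± 0.46 in BANIC, 8.25 ± 0.31 in BINIC and 7.77 ± 0.56 in ISOL fish (SD, n = 3 each). Its difference from ISOL was 1.78 (SE 0.23, adjusted p = 0.00878) in BIC, which was called, 1.39 (SE 0.27, adjusted p = 0.121) in BANIC and 0.48 (SE 0.25, adjusted p = 0.599) in BINIC. Among the 18338 genes these differences stood at ranks 6, 9 and 147 from the top. In attentive fish against the other fish the difference was 1.35 (SE 0.19, adjusted p = 0.00195), also called. The call in BIC was lost without the SD filter, with adjusted p = 0.308, with a trended and robust variance, with adjusted p = 0.129, and without BIC fish 2 or BIC fish 3, with adjusted p = 0.111 and 0.0575. The call in attentive fish was lost with a trended and robust variance, with adjusted p = 0.0755.

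dnajb5, by the platform's name, read 6.78, 6.78 and 6.94 in BIC, 6.65, 6.99 and 6.84 in BANIC, 7.03, 7.09 and 6.90 in BINIC and 6.58, 6.48 and 6.99 in ISOL fish. The groups overlapped in every pairing, and by their means they ran from BINIC (7.01 ± 0.09) over BIC (6.83 ± 0.09) and BANIC (6.83 ± 0.17) to ISOL (6.68 ± 0.27; SD, n = 3 each), with overlapping fish in each pair of neighbours in that order. Its difference from ISOL was 0.15 (SE 0.15, adjusted p = 0.906) in BIC, 0.14 (SE 0.16, adjusted p = 0.908) in BANIC and 0.32 (SE 0.15, adjusted p = 0.574) in BINIC, and in attentive against other fish it was -0.02 (SE 0.11, adjusted p = 0.993). The BINIC difference had an unadjusted P under 0.05 in the fit of all genes but not in the main fit. By the means alone, BINIC was the highest bystander group in dnajb5 and the lowest in zgc:122979. dnajb5 in BANIC against BINIC was -0.18 (-0.26 to -0.09 without 1 fish), with an unadjusted P of 0.12 in the limma fit of all genes. BIC against BINIC was not fitted. A comparison of the 2 probe sets with each other was not made, since their levels are not on 1 scale.

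**Figure D1:**
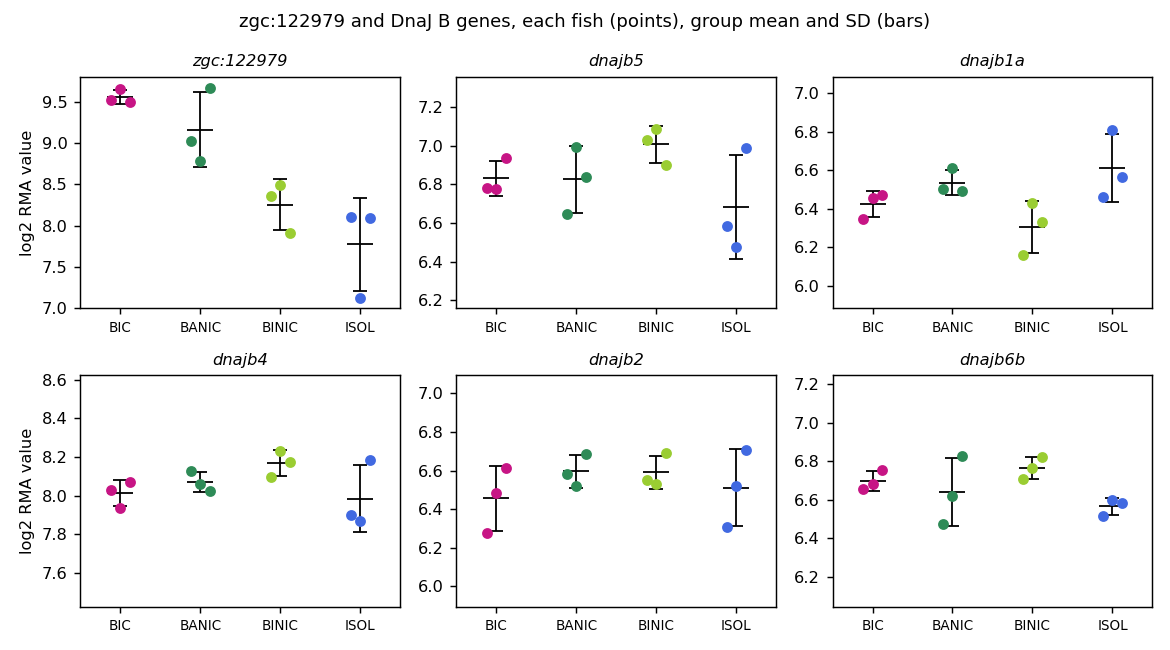
Log2 RMA values (vertical axis, own range in each panel) of zgc:122979 and 5 DnaJ B genes in BIC, BANIC, BINIC and ISOL fish (horizontal axis); points are fish and bars are group means with SD (n = 3). In zgc:122979 all 6 BIC and BANIC fish lie at 8.79 or above and all 6 BINIC and ISOL fish at 8.49 or below, while in the other 5 genes attentive and other fish overlap.

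Among the other relatives, dnajb1a, whose product is the stress-inducible partner of cytosolic HSP70, read 6.35, 6.45 and 6.47 in BIC, 6.50, 6.61 and 6.49 in BANIC, 6.16, 6.43 and 6.33 in BINIC and 6.46, 6.81 and 6.57 in ISOL fish. All 3 BINIC fish were below all 3 ISOL fish and all 3 BANIC fish. The difference was -0.31 (SE 0.14, adjusted p = 0.573) in BINIC against ISOL and 0.23 (SE 0.12, adjusted p = 0.689) in BANIC against BINIC. Of all genes 7.25% had BINIC fish below ISOL fish without overlap, and 5.99% had BANIC fish above BINIC fish. dnajb4, the close cytosolic relative, ranged from 7.87 to 8.23 over the 12 fish, dnajb2, which in mammals is a neuronal chaperone of the proteasome pathway, from 6.27 to 6.71, and dnajb6a, one of the copies of a suppressor of polyglutamine aggregation, from 5.83 to 6.26. Its other copy dnajb6b was 0.20 higher in BINIC than in ISOL fish (SE 0.07, adjusted p = 0.488), with 6.71, 6.77 and 6.82 in BINIC against 6.51, 6.60 and 6.58 in ISOL fish, which did not overlap. BIC fish, at 6.65, 6.68 and 6.75, did not overlap ISOL fish in dnajb6b either, with a difference of 0.13. Of all genes 4.68% lay above ISOL in that way in BIC. The probe set of dnajb1b is assigned to several genes and is left unnamed.

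Over the 13 DnaJ B genes the median difference from ISOL was 0.03 in BIC, 0.07 in BANIC and 0.04 in BINIC, against medians of -0.01, -0.01 and 0.01 for all genes. All 13 stayed within 0.2 of ISOL in BIC and in BANIC, and 10 of 13 did so in BINIC. Of all genes 88.4% stayed within 0.2 of ISOL in BIC, 88.1% in BANIC and 83.6% in BINIC, which is the background for such counts in every class. Among the ER members of type B, dnajb9b (ERdj4, a co-chaperone of BiP) read 5.06, 4.99 and 5.01 in BINIC against 4.80, 4.92 and 4.58 in ISOL fish, a difference of 0.26 (SE 0.13, adjusted p = 0.600). dnajb13, a gene of cilia and sperm flagella, was 0.12 higher in attentive fish (adjusted p = 0.766), with overlapping groups.

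**Figure D2:**
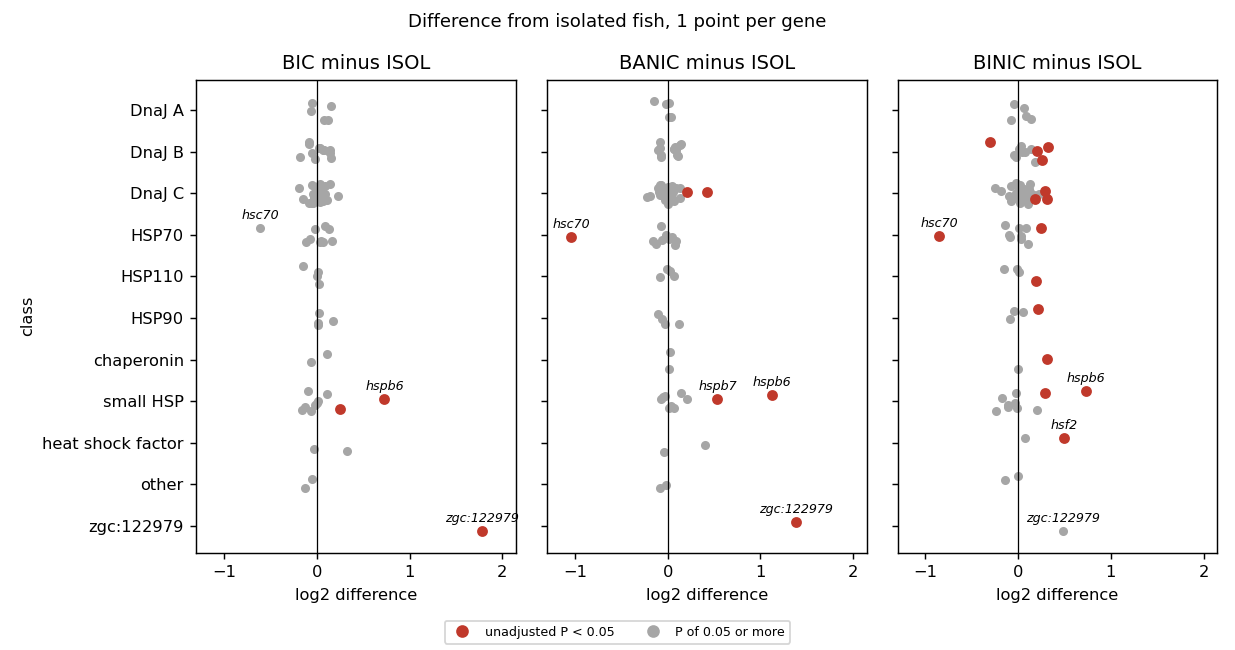
Log2 difference from ISOL (horizontal axis) of each of the 82 chaperone genes, 1 point per gene, by class (vertical axis) in BIC, BANIC and BINIC, with zgc:122979 in the lowest row; red points have an unadjusted P under 0.05 in the fit of all genes. Within 0.2 of 0 lie 77 of 82 in BIC (93.9%, against 88.4% of all genes), 74 in BANIC (90.2%, against 88.1%) and 66 in BINIC (80.5%, against 83.6%). Of the 82 genes hspb6 and hsc70 lie furthest from 0 in each panel.

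Of the heat shock factors, hsf1, the regulator of the heat shock response, stayed at 7.51 to 7.67 over the 12 fish (SD 0.0568), with differences from ISOL of -0.04 in BIC, -0.04 in BANIC and 0.07 in BINIC. Within that range the 3 BINIC fish, at 7.67, 7.64 and 7.66, were the highest of the 12. Of all genes 8.56% had BINIC fish above ISOL fish without overlap. hsf2, a second factor that in mammals acts mainly in development and in partnership with HSF1, read 7.46, 7.49 and 7.51 in BIC, 7.83, 7.23 and 7.62 in BANIC, 7.52, 7.75 and 7.70 in BINIC and 7.10, 6.89 and 7.49 in ISOL fish. The first and second ISOL fish were the lowest of the 12, and the third lay within the range of the bystanders. The difference from ISOL was 0.33 (SE 0.16, adjusted p = 0.882) in BIC, 0.40 (SE 0.19, adjusted p = 0.835) in BANIC and 0.50 (SE 0.16, adjusted p = 0.455) in BINIC, and the BINIC and ISOL fish did not overlap. Leaving out any 1 fish did not bring hsf2 to a call.

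All 4 HSP90 genes stayed within 0.2 of ISOL in BIC and in BANIC, and 3 of 4 did so in BINIC. The constitutive cytosolic hsp90ab1 stayed at 9.76 to 9.90 over the 12 fish, the inducible hsp90aa1.2 at 8.57 to 8.97, and hsp90b1, the form of the ER lumen, at 7.18 to 7.51. hsp90aa1.1, which in zebrafish muscle is needed to fold myosin, was close to the low end of the array at 3.68 to 4.19. It read 4.00, 3.97 and 4.09 in BINIC against 3.85, 3.85 and 3.74 in ISOL fish, a difference of 0.21 (SE 0.12, adjusted p = 0.625). In the third BANIC fish, with the highest muscle markers, it read 4.08, against 3.68 and 4.04 in the other BANIC fish. Higher values were 4.19 in the third BIC fish and 4.09 in the third BINIC fish. The part of muscle in these values was not tested.

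In the HSP70 family the gene annotated as hsc70 had the largest spread of all 82, with an SD of 0.557. It read 5.41, 4.78 and 4.71 in BIC, 4.59, 4.33 and 4.72 in BANIC, 4.82, 4.57 and 4.81 in BINIC and 5.67, 4.78 and 6.30 in ISOL fish. ISOL fish 1 and 3 were the 2 highest of the 12, and the second ISOL fish lay within the range of the bystanders. The difference from ISOL was -0.61 (SE 0.32, adjusted p = 0.882) in BIC, -1.04 (SE 0.29, adjusted p = 0.469) in BANIC and -0.85 (SE 0.28, adjusted p = 0.455) in BINIC. Without the second ISOL fish hsc70 was called in BANIC, at -1.44 (adjusted p = 0.0125), and in BINIC, at -1.25 (adjusted p = 0.0135), but not in BIC, at -1.01 (adjusted p = 0.406). These fits rest on 2 ISOL fish. Between the attentive groups hsc70 was 0.42 higher in BIC than in BANIC (SE 0.19, adjusted p = 0.9995). That difference was 0.20 without the first BIC fish and up to 0.55 without another fish.

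Of the 10 HSP70 genes, 9 stayed within 0.2 of ISOL in BIC and in BANIC and 8 did so in BINIC. hspa8, the constitutive cytosolic form, stayed at 10.38 to 10.67 and its relative hspa8b at 7.43 to 7.77. hspa9, the mitochondrial form, ranged from 8.35 to 8.72. hspa5, the ER form BiP, read 8.13, 8.30 and 8.10 in BIC, 7.91, 7.87 and 7.98 in BANIC, 7.80, 8.14 and 8.21 in BINIC and 7.90, 8.00 and 8.23 in ISOL fish, and all 3 BIC fish were above all 3 BANIC fish, with a difference of 0.26 (SE 0.11, adjusted p = 0.9995). Of all genes 4.59% had BIC fish above BANIC fish without overlap. hspa13, an ER-associated relative, read 6.12, 5.82 and 6.05 in BINIC against 5.77, 5.74 and 5.73 in ISOL fish, a difference of 0.25 (SE 0.09, adjusted p = 0.496). All 3 BANIC fish, at 5.83, 5.83 and 5.86, also lay above all 3 ISOL fish in hspa13, with a difference of 0.09. Of all genes 4.88% did so in BANIC. hspa12a, a distant relative, was 0.12 higher in attentive fish (adjusted p = 0.766), with overlapping groups.

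The inducible hspa1b was near the low end of the array, at 3.71 to 4.21. A further 3 probe sets of the inducible HSP70 genes are assigned to several genes at once and are outside the 82. The brightest of them read 5.14, 5.10 and 5.03 in BIC, 5.08, 5.22 and 4.97 in BANIC, 4.87, 5.09 and 5.40 in BINIC and 5.16, 6.11 and 5.49 in ISOL fish. Its difference from ISOL, a description with no test, was -0.50 in BIC, -0.50 in BANIC and -0.47 in BINIC, and the second ISOL fish, the highest here, was the lowest of the ISOL fish in hsc70.

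Of the HSP110 genes, which serve HSP70 as nucleotide exchange factors, hspa4b read 7.54, 7.61 and 7.66 in BINIC against 7.33, 7.43 and 7.47 in ISOL fish, a difference of 0.19 (SE 0.08, adjusted p = 0.515), and BANIC was -0.16 (SE 0.06, adjusted p = 0.566) against BINIC. hspa4a ranged from 5.56 to 5.97, and all 4 HSP110 genes stayed within 0.2 of ISOL in every group.

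The 5 DnaJ A genes, type A co-chaperones of the cytosol and of mitochondria, all stayed within 0.2 of ISOL in BIC, BANIC and BINIC. dnaja1, a cytosolic partner of HSP70, ranged from 6.65 to 7.07 over the 12 fish, dnaja2a from 7.61 to 7.93 and dnaja2b from 8.21 to 8.63.

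The 30 DnaJ C genes, a mixed class of specialised co-chaperones, had median differences from ISOL of 0.00 in BIC, 0.01 in BANIC and 0.03 in BINIC. In BANIC, dnajc28 read 4.49, 4.89 and 4.74 against 4.23, 4.34 and 4.29 in ISOL fish, with no overlap and a difference of 0.42 (SE 0.14, adjusted p = 0.601). dnajc5b, a low-level relative of cysteine string protein, was 0.21 higher there (adjusted p = 0.850). In BINIC, 3 members passed the weaker rule. dnajc18 read 8.21, 8.03 and 8.18 against 7.79, 7.90 and 7.87 in ISOL fish, a difference of 0.29 (SE 0.13, adjusted p = 0.566). Next, dnajc3a, an ER co-chaperone that in mammals restrains the kinase PERK, read 5.76, 5.73 and 5.65 against 5.29, 5.37 and 5.55 in ISOL fish, a difference of 0.31 (SE 0.13, adjusted p = 0.554). The third was dnajc5ga, a cysteine string protein relative, at 7.26, 7.19 and 7.23 in BINIC against 7.07, 7.06 and 7.01 in ISOL fish, a difference of 0.18 (SE 0.07, adjusted p = 0.496). All 3 kept BINIC and ISOL fish apart.

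dnajc11a, whose product in mammals belongs to the machinery that shapes the mitochondrial membranes, read 5.88, 5.95 and 5.91 in BIC, 5.90, 5.96 and 5.79 in BANIC, 6.29, 6.21 and 6.03 in BINIC and 6.0, 6.29 and 5.92 in ISOL fish. The attentive fish lay at 5.96 or below and the other fish at 5.92 or above. The difference between them was -0.22 (SE 0.09, adjusted p = 0.791). In BANIC against BINIC the difference was -0.29 (SE 0.12, adjusted p = 0.631), with no overlap. Of all genes 9.28% had BANIC fish below BINIC fish without overlap. At an unadjusted P under 0.05, dnajc14, dnajc18, dnajc3a and dnajc5ga were also lower in BANIC than in BINIC, with differences of -0.18, -0.20, -0.25 and -0.16 in that order. Between BIC and BANIC, dnajc30b, a mitochondrial gene, was 0.25 higher in BIC (adjusted p = 0.9995). dnajc24, which in yeast and mammals serves diphthamide synthesis, was lower in BIC, with a difference of -0.18 (adjusted p = 0.9995).

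Further DnaJ C genes were among the 5 largest differences in a direction without passing the weaker rule in that comparison. dnajc5gb, another cysteine string protein relative, read 4.76, 4.94 and 4.85 in BIC, 4.90, 4.99 and 4.98 in BANIC, 4.79, 4.65 and 4.95 in BINIC and 5.21, 4.92 and 5.0 in ISOL fish, with differences from ISOL of -0.19 in BIC and -0.24 in BINIC. dnajc30b was -0.22 in BANIC and -0.19 in BINIC against ISOL. dnajc21, whose yeast counterpart serves ribosome assembly, was -0.15 in attentive against other fish and -0.24 in BANIC against BINIC, and dnajc8, a spliceosome-associated gene in mammals, was -0.23 there. dnajc28 was 0.24 in attentive against other fish, and dnajc2, a ribosome-associated co-chaperone, was 0.16 in BIC against BANIC. Adjusted p-values of all these differences were 0.615 or above.

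By cell compartment, 13 chaperone genes of the ER, 9 of mitochondria and 4 of the synaptic vesicle and clathrin cycle were placed. The median differences from ISOL of the ER genes were 0.03 in BIC, -0.06 in BANIC and 0.03 in BINIC, those of the mitochondrial genes 0.01, 0.02 and 0.03, and those of the vesicle genes 0.05, 0.02 and 0.01.

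hspd1, the Hsp60 subunit of the mitochondrial chaperonin, read 6.59, 6.70 and 6.95 in BIC, 6.58, 6.75 and 6.66 in BANIC, 6.83, 7.02 and 6.98 in BINIC and 6.59, 6.63 and 6.69 in ISOL fish. All 3 BINIC fish were above all 3 ISOL and all 3 BANIC fish, with a difference of 0.31 (SE 0.13, adjusted p = 0.554) from ISOL and of -0.27 (SE 0.12, adjusted p = 0.642) for BANIC against BINIC. Of all genes 8.56% had BINIC fish above ISOL fish without overlap, and 9.28% had BANIC fish below BINIC fish. hspe1, the Hsp10 cap, read 5.02 to 5.34 over the 12 fish, and its differences from ISOL were -0.07 in BIC, 0.02 in BANIC and 0.00 in BINIC.

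Among the small heat shock proteins hspb6 (Hsp20, abundant in mammalian muscle) had an unadjusted P under 0.05 against ISOL in BIC, BANIC and BINIC. It read 6.51, 6.85 and 7.28 in BIC, 6.70, 7.12 and 8.03 in BANIC, 7.01, 6.82 and 6.82 in BINIC and 5.94, 6.31 and 6.21 in ISOL fish. The 3 ISOL fish were the 3 lowest of the 12, which held for no other gene of the 82 and for 0.594% of all genes. The differences from ISOL were 0.73 (SE 0.19, adjusted p = 0.524) in BIC, 1.13 (SE 0.27, adjusted p = 0.276) in BANIC and 0.73 (SE 0.14, adjusted p = 0.165) in BINIC, and none reached the FDR threshold. Without the second ISOL fish the BINIC difference was 0.81 (adjusted p = 0.0478), below the fold threshold.

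The third BANIC fish, with the highest skeletal muscle markers, had the highest hspb6 of the 12, at 8.03. It also had the highest hspb7 (a cardiac and muscle small heat shock protein), at 6.70, and the highest hspb1 (Hsp27), at 7.98. The same fish was the highest of the 12 in hspb8 (4.81), hspb9l (4.61) and zgc:122979 (9.67). In hspb2, hspb3, hspb9, hspb11 and hspb15 another fish was the highest. In the third BANIC fish 9 of the 18 muscle markers were at their highest, and the markers' mean of 5.25 lay above all 11 others. Without it the BANIC difference from ISOL was 0.76 for hspb6 (adjusted p = 0.416) and 0.35 for hspb7 (adjusted p = 0.960), against 1.13 and 0.54 with it. That fish has no part in the comparisons of BIC and BINIC with ISOL, where hspb6 was 0.73 and 0.73 higher and the mean of the muscle markers was 4.18 to 4.39 in BIC (against 4.18 to 5.25 in BANIC), 4.20 to 4.44 in BINIC and 4.21 to 4.38 in ISOL fish. At an unadjusted P under 0.05, 1 of the 18 markers was higher (actc1a) and 1 lower (ckma) in BIC than in ISOL fish. In BINIC 1 was higher (actc1a) and 0 lower. actc1a read 4.43, 4.51 and 4.14 in BIC, 4.21, 4.52 and 4.50 in BINIC and 4.23, 3.99 and 3.84 in ISOL fish. Some markers were near the low end of the array, such as pvalb2, with a mean of 2.76 over the 12 fish. The mean of the endothelial and pericyte markers lay at 6.61 or above in the ISOL fish and at 6.61 or below in the bystanders. In the ISOL fish hspb6 was lowest, and hsc70 was high in ISOL fish 1 and 3. The part of the muscle and of the endothelial markers in these values was not tested.

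hspb7 read 5.92, 5.61 and 5.83 in BIC, 6.20, 6.06 and 6.70 in BANIC, 6.02, 6.03 and 6.19 in BINIC and 5.79, 6.02 and 5.54 in ISOL fish, and all 3 BANIC fish were above all 3 BIC fish and all 3 ISOL fish. The difference was 0.54 (SE 0.18, adjusted p = 0.676) for BANIC against ISOL, 0.29 (SE 0.15, adjusted p = 0.593) for BINIC against ISOL and -0.53 (SE 0.17, adjusted p = 0.9995) for BIC against BANIC. Of all genes 4.88% had BANIC fish above ISOL fish without overlap, and 4.56% had BIC fish below BANIC fish. hspb1 read 6.93, 7.31 and 7.33 in BIC, 7.17, 7.43 and 7.98 in BANIC, 7.20, 6.56 and 7.48 in BINIC and 7.14, 7.63 and 7.19 in ISOL fish, with overlapping groups throughout. Its difference was -0.24 (SE 0.22, adjusted p = 0.740) in BINIC against ISOL, -0.34 (SE 0.20, adjusted p = 0.9995) in BIC against BANIC and 0.45 (SE 0.25, adjusted p = 0.694) in BANIC against BINIC. Without the third BANIC fish hspb1 was -0.11 in BIC against BANIC and 0.22 in BANIC against BINIC, and hspb7 was -0.34 in BIC against BANIC. Over all fits that left out 1 fish, hspb1 ran from -0.52 to -0.11 in BIC against BANIC and from 0.19 to 0.65 in BANIC against BINIC, and in BINIC against ISOL it was 0.020 without the second BINIC fish. hspb3 was 0.25 higher in BIC than in ISOL fish (adjusted p = 0.882), with 4.36, 4.21 and 4.24 against 4.07, 3.91 and 4.09, and hspb11 stayed at 5.31 to 5.61. hspb9l in BIC against ISOL fish had a difference of -0.16 (adjusted p = 0.887), with overlapping groups.

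**Figure D3:**
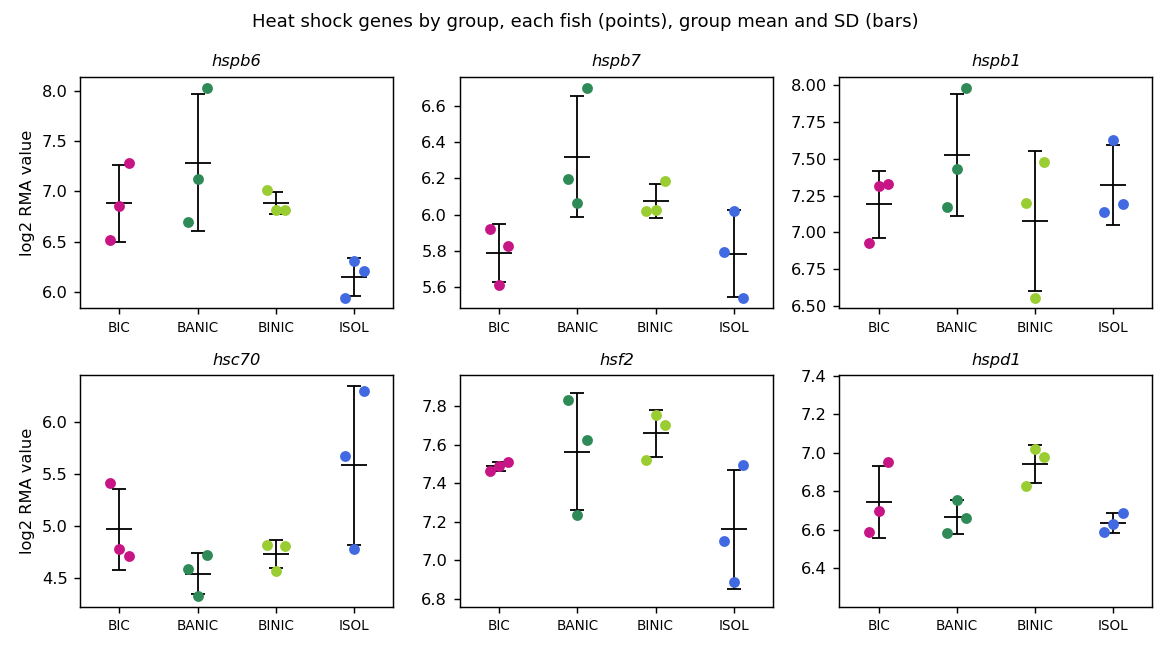
Log2 RMA values (vertical axis, own range in each panel) of hspb6, hspb7, hspb1, hsc70, hsf2 and hspd1 in BIC, BANIC, BINIC and ISOL fish (horizontal axis); points are fish and bars are group means with SD (n = 3). The 3 ISOL fish are the lowest of the 12 in hspb6, ISOL fish 1 and 3 are the highest in hsc70, and the 3 BINIC fish lie above all ISOL and BANIC fish in hspd1.

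**Figure D4:**
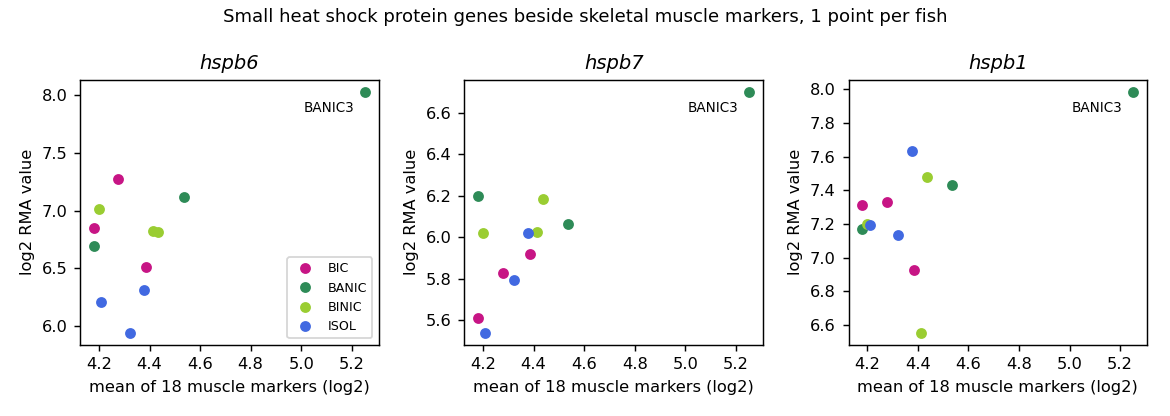
Log2 RMA values (vertical axis) of hspb6, hspb7 and hspb1 against the mean of 18 skeletal muscle markers (horizontal axis, log2), 1 point per fish, coloured by group. The third BANIC fish, marked in each panel, has the highest marker mean (5.25) and the highest value of all 3 genes.

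BINIC against ISOL had the most chaperone genes past the weaker rule. The 15 genes (13 higher and 2 lower) included members of each class but the DnaJ A type and the binding proteins. Groups did not overlap for 14 genes that were higher (17.1%, against 8.56% of all genes) and 2 that were lower (2.44%, against 7.25% of all genes). In the fit of all genes the count was 15 with all fish, 7 without the third BINIC fish, 8 without the first ISOL fish, 9 without the third ISOL fish, 10 without the second BINIC fish, 11 without the first BINIC fish and 12 without the second ISOL fish, and 9 with a replicate block. Genes are not independent replicates, so the shares are descriptions. The share of all genes in each of these refits is not given. Whether the counts of chaperone genes fell more than that share was not tested.

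**Figure D5:**
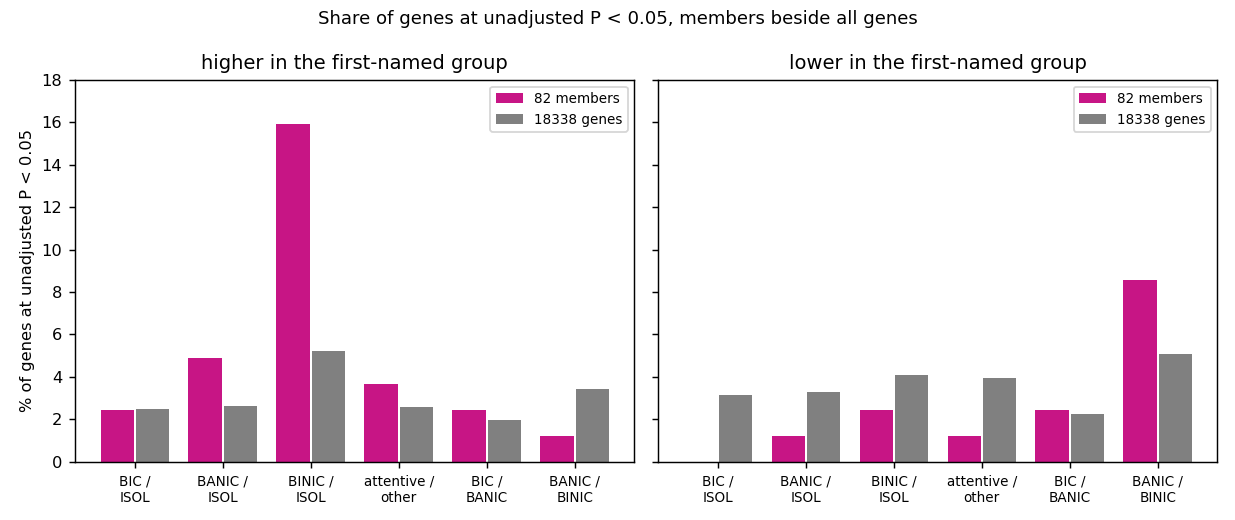
Share of genes (vertical axis, %) with an unadjusted P under 0.05 in the limma fit of all genes, higher (left) or lower (right) in the first-named group, in each of the 6 comparisons (horizontal axis), for the 82 chaperone genes beside all 18338. The largest gap is in BINIC against ISOL, with 15.9% of chaperone genes and 5.24% of all genes higher.

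Attentive fish against the other fish gave 3 chaperone genes higher (2.56% of all genes were) and 1 lower (3.94% of all genes), namely hspb6, hspa12a and dnajb13, and dnajc11a. hspb6 was higher by 0.56 (SE 0.22, adjusted p = 0.791), and by 0.37 (adjusted p = 0.962) without the third BANIC fish. None of the 82 kept all 6 attentive fish apart from the other 6. Of all genes 0.218% did so on the higher side and 0.229% on the lower side, so 0 of 82 says little about the members. Among those on the higher side was zgc:122979, the DnaJ B gene that the symbol rule does not reach, which was singled out on these same arrays. Between BIC and BANIC 2 members were higher and 2 lower (1.96% and 2.26% of all genes), and between BANIC and BINIC 1 was higher and 7 lower (3.45% and 5.09%).

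Genes that work with chaperones but fall outside the symbols were read as lists. Beside their counts against ISOL stand the shares of all genes at an unadjusted P under 0.05. These were 2.5% higher and 3.13% lower in BIC, 2.61% and 3.29% in BANIC, and 5.24% and 4.07% in BINIC. Of 47 measured co-chaperones and partners, at an unadjusted P under 0.05, 1 was higher and 0 lower in BIC and in BANIC, and 1 was higher and 1 lower in BINIC, and 0 were called. The higher one was itpkcb each time, an inositol phosphate kinase gene that is no chaperone partner and entered the list by mistake, and the lower one was pam16, of the mitochondrial import motor. Of 14 genes of the cytosolic chaperonin TRiC and of prefoldin, 1 was higher in BIC (cct2), and 1 was higher (cct2) and 1 lower (pfdn1) in BANIC. In BINIC 2 were higher (cct3 and cct7) and 1 lower (pfdn6). Of 31 genes of ER stress and folding, 0 were higher and 2 lower in BIC (ern2 and pdia6) and in BANIC (calr3b and pdia6). In BINIC 3 were higher (p4hb, syvn1 and creld2) and 3 lower (ddit3, ern2 and pdia6). The difference of pdia6 from ISOL was -0.43 in BIC, -0.48 in BANIC and -0.36 in BINIC. In attentive against other fish 0 of the 31 were higher and 5 lower (calr3b, pdia5, pdia6, manf and creld2), beside 3.94% of all genes lower, and in BANIC against BINIC 1 was higher and 6 lower, beside 5.09%. Of 17 heat shock factor genes and targets, 0 passed in BIC or BANIC, and in BINIC hsbp1a, a binding protein of heat shock factors, was higher and dedd1, a death effector gene that is no such target, was lower. In attentive against other fish 1 co-chaperone or partner was higher and 2 lower. For TRiC and prefoldin 1 was higher and 1 lower, and for the heat shock factor list 0 and 0. In BANIC against BINIC these counts were 1 and 0, 1 and 2, and 1 and 1 in that order. Of all genes 2.56% were higher in attentive fish and 3.45% in BANIC against BINIC. The median differences from ISOL of these lists lay between -0.06 and 0.04.

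The immediate early genes, which neurons switch on when they fire, were read beside zgc:122979. The list includes genes that the study called on these same arrays, among them egr4, npas4a, nr4a1 and btg2. zgc:122979 was singled out there too, so the values are a description, and a relation between them was not tested. At an unadjusted P under 0.05, of 51 measured, 29 were higher and 0 lower in BIC, and 24 were higher and 1 lower (rgs2, with a difference of -0.41) in BANIC, with median differences from ISOL of 0.44 and 0.34, while in BINIC 3 were higher and 3 lower and the median was 0.03. Of all genes 2.5% were higher and 3.13% lower in BIC, 2.61% and 3.29% in BANIC, and 5.24% and 4.07% in BINIC.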

How the data were processed

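The authors deposited 1 log2 value per probe set and array, made by RMA (background correction, quantile normalization and summary) with the package oligo, with no centring on genes or groups. Quantile normalization makes the arrays' distributions equal, so a difference is relative to all probe sets, and values near the low end of the array understate fold changes. No counts or depth belong to such values, and 3 arrays per group limit the precision. Of 23467 probe sets, 19283 had 1 Entrez gene, 1588 were listed without exactly 1 and 2596 were not listed in the platform annotation. Each of 18338 genes was read from its brightest probe set on average, and the test took the 9169 genes whose SD across the 12 arrays exceeded the median SD. limma 3.58.1 under R 4.3.3 (lmFit and eBayes) was fitted to the 6 arrays of each comparison and to all 12 for attentive against other fish, with Benjamini-Hochberg adjustment over all genes tested. A printed SE and adjusted p come from that fit for genes past the SD filter and otherwise from the fit of all genes. The weaker rule was applied in the fit of all genes unless stated, so it can differ from the printed SE. A second fit took all genes without the SD filter. No batch was given by the labels, and nothing says how the fish were spread over array runs.

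The procedure was run on simulated data with independent noise in each gene and planted log2 differences of at least 1. Such data hold no outlying fish and no differences as small as those of most members. They therefore say nothing about such differences. The members, gene lists and tests were chosen with earlier results of these data known. Named are dnajb5, in each comparison the 5 members of largest difference in each direction past the SD filter, members at an unadjusted P under 0.05, and members set by role. Compartments were assigned, and zgc:122979 and the unnamed probe sets added, after values were seen. Gene names follow the platform, and chromosomes come from RefSeq on GRCz12tu. Replicate numbers are shared between groups but did not pair the fish.

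Alternatives were no SD filter, removal of dim genes, a trended and robust variance, all 4 groups in 1 fit, other treatments of probe sets, centring of arrays, array weights, a replicate block and leaving out each fish. Behavior, motif and network analyses were not used here. The study's own fold changes and P-values were not used.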

Additional observations from a re-analysis of the deposited data

How the results depend on the processing

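None of the 82 genes was called in any of the 6 comparisons under any alternative with all fish, and leaving out each fish in turn gave 0 to 1 called in BANIC and in BINIC against ISOL (hsc70, without the second ISOL fish) and 0 in the other 4. Counts of members at an unadjusted P under 0.05 moved more, but they rest on different numbers of members tested. These were 35 in the main fit, 82 without the filter and 17 with dim genes removed. Against ISOL, 2.63% of genes in the main fit were higher and 3.04% lower in BIC. The shares were 3.01% and 2.94% in BANIC, and 5.16% and 3.6% in BINIC. In attentive against other fish they were 2.7% and 3.47%. In BIC against BANIC they were 1.58% and 2.0%, and in BANIC against BINIC 3.37% and 4.18%. Among genes past the SD filter the count in BIC against ISOL was 1, and 2 without the filter, with a trended and robust variance, with all 4 groups in 1 fit or with array weights, 3 with a replicate block, and 1 to 3 without 1 fish. In BANIC against ISOL it was 4, and 2 with dim genes removed and 3 to 5 without 1 fish. In BINIC against ISOL it was 6, and 15 without the filter, 3 with a replicate block and 4 to 6 without 1 fish. In attentive against other fish it was 2, and 4 without the filter and 2 to 4 without 1 fish. In BIC against BANIC it was 3, and 1 with all 4 groups in 1 fit and 1 to 5 without 1 fish. In BANIC against BINIC it was 2, and 8 without the filter, 1 with arrays centred on their medians and 0 to 3 without 1 fish, the 0 without the third BANIC fish. Among all genes the counts without 1 fish ran from 2 to 5, 3 to 6, 7 to 12, 1 to 5, 3 to 6 and 4 to 8 in the same order of comparisons, where all fish gave 2, 5, 15, 4, 4 and 8. With a replicate block the count was 9 in BINIC against ISOL and 8 in BIC against BANIC. No share of all genes is given beside the counts without 1 fish or with a replicate block. Same-numbered fish did not deviate together: over 18 pairs across groups the correlation ran from -0.151 to 0.193, 1 was over 0.1, and the median was 0.00885 against 0.0105 for other pairs.

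zgc:122979 kept its direction under every alternative run, though some of these reuse the same group means and could not change it. In BIC against ISOL its difference was 1.78 without the SD filter (adjusted p = 0.308) and 1.78 with a trended and robust variance (adjusted p = 0.129), both past the fold threshold but not the FDR threshold, and 1.46 to 1.95 without 1 fish. In attentive against other fish it was 1.35 with a trended and robust variance (adjusted p = 0.0755) not past the FDR threshold, and 1.17 to 1.46 without 1 fish, called each time. In BANIC against ISOL it was called with all 4 groups in 1 fit (adjusted p = 0.0465) and with a replicate block (adjusted p = 0.0230). The sign of some differences turned. hspb1 in BINIC against ISOL, -0.24 with all fish, was 0.020 without the second BINIC fish (-0.44 to 0.020 without 1 fish), hspb7 in attentive against other fish was -0.0067 without the third BANIC fish (-0.0067 to 0.21), dnajb5 in attentive against other fish was 0.021, 0.022, 0.033 and 0.014 without the BANIC fish 1, BINIC fish 1, BINIC fish 2 or ISOL fish 3 (-0.089 to 0.033), and dnajb5 in BIC against BANIC was -0.047 and -0.084 without BIC fish 3 or BANIC fish 1 (-0.084 to 0.089). The cause was not tested. Of 1030 alternative values of named members 1020 kept direction and side of the threshold. Many of these settings reuse the same group means and could not change a direction. No member was called in the main fit, so most values had little room to change side. The count is therefore no measure of robustness.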

Other observations

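A second probe set existed for 6 of the 82 genes, dnajb12b, dnajc16l, dnajc4, dnajc7, hspb9 and hspe1, and was not used in the comparisons. The second probe set of dnajc4 read 0.24 above ISOL in BIC, 0.18 in BANIC and 0.10 in BINIC, where the first gave 0.05, -0.03 and -0.07. That of hspb9 was 0.24 below ISOL in BINIC fish, at 3.02, 3.10 and 3.23 in BINIC against 3.32, 3.24 and 3.50 in ISOL fish, where the first differed by -0.02. For hspe1 the second probe set gave 0.03, 0.08 and 0.10 in BIC, BANIC and BINIC, and the first -0.07, 0.02 and 0.00.

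The probe set shared by dnajb1b and a second gene read 3.88, 4.1 and 3.94 in BIC, 3.94, 4.03 and 4.06 in BANIC, 3.72, 3.91 and 4.16 in BINIC and 3.81, 3.95 and 4.04 in ISOL fish, with overlapping groups. The faintest of the inducible HSP70 probe sets that are assigned to several genes read 3.01, 2.79 and 3.10 in BIC fish and 2.57, 2.85 and 2.53 in ISOL fish, which overlapped, while the brightest was 0.50 below ISOL in BIC fish. The third, of hsp70.3 and hsp70l, differed from ISOL by -0.14 in BIC, -0.18 in BANIC and -0.23 in BINIC. All BIC fish and all BANIC fish lay below all ISOL fish, while BINIC and ISOL fish overlapped. Of all genes 6.01% lay below ISOL without overlap in BIC and 6.24% in BANIC.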
